A study of Homo sapiens with 17 samples.

Results

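The major histone gene cluster on the short arm of chromosome 6 was represented by 34 of the 15982 baited promoter fragments that had a significant interaction in naive or primed human pluripotent stem cells (PSCs). A bait was counted as a histone bait when it lay in the interval that holds the cluster and when the promoter of a histone gene, taken as a transcript start and the 1000 bases upstream of it in GENCODE version 44, overlapped the fragment. The bait marks of the deposited lists carry a strand sign and no gene name, so the genes came from this annotation rather than from the lists. Of the 51 baits of the interval, 17 held no histone promoter and were kept apart. The 34 histone baits spanned chr6:26016454-27897145 (GRCh38) and carried 57 histone genes, of which 51 were protein-coding, and 21 baits held more than 1 histone gene. A bait is therefore named by all histone genes whose promoters it carries, for example *H1-1/H3C1/H4C1*.

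The study compared naive and primed embryonic stem cells of the NK2 H9 line, an established human line whose naive and primed cells share 1 genotype. Naive PSCs resemble cells of the epiblast before implantation and were grown in t2iL+PKCi medium on Matrigel, whereas primed PSCs resemble the epiblast after implantation and were grown in TeSR-E8 on Vitronectin. Promoter capture Hi-C (PCHi-C), which enriches *Hin*dIII fragment pairs that contain a promoter, was deposited as 1 list of significant pairs per state made from 2 combined replicates, Hi-C as 1 library per state, and CUT&RUN for H3K4me1, a mark of enhancers and of the flanks of active promoters, as 2 naive and 3 primed libraries. All of them come from a single cell line, and replicates of it measure the spread between cultures or libraries of that line only. The labels do not say whether the libraries of a state were separate cultures, so p-values measure the spread between these libraries. As a check, both naive H3K4me1 libraries lay above all primed libraries on the fragments of the naive genes *KLF17*, *DPPA3*, *SUSD2* and *DPPA5*. *DPPA3* (log2 difference 1.72) and *DPPA5* (2.82) passed the test. Of the primed genes *DUSP6*, *ZIC2*, *OTX2* and *SFRP2* none passed it. By number of PCHi-C pairs, 2 of these 4 naive genes had more in naive, 1 had more in primed and 1 was equal. Of the 4 primed genes 3 had more in primed and 1, *SFRP2*, had more in naive (19 and 5).

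Replication-dependent histone genes supply the histones that package newly copied DNA, and they are transcribed mainly in S phase. They lie in tandem groups, lack introns, and are transcribed and processed in a nuclear structure called the histone locus body, which the protein NPAT helps to build. H2A and H2B form dimers and H3 and H4 form a tetramer in the nucleosome core, and H1 linker histones bind the DNA where it enters and leaves the nucleosome.

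The promoters of the histone genes share short motifs within each class, and 4 of them are shown because their baits carry the main results: *H1-5* on the bait with the largest difference in number of pairs between states, *H1-1* on the bait with the largest ratio, *H2BC12* on the bait with the most interactions, and *H4C12* on a bait of the last sub-cluster with an H4 gene. Each sequence is the RefSeq promoter window of 300 bases (build GRCh38.p14, 250 bases before the start and 50 after it), printed 5′ to 3′ on the strand of the gene, and capitals mark matches on either strand to the CCAAT box, the TATA motif TATAAA, the octamer motif ATTTGCAT or the H1 box motif AAACACA. All 4 genes lie on the minus strand of chromosome 6, *H1-1* at chr6:26017738-26018037, *H1-5* at chr6:27867539-27867838, *H2BC12* at chr6:27146809-27147108 and *H4C12* at chr6:27831511-27831810.
H1-1: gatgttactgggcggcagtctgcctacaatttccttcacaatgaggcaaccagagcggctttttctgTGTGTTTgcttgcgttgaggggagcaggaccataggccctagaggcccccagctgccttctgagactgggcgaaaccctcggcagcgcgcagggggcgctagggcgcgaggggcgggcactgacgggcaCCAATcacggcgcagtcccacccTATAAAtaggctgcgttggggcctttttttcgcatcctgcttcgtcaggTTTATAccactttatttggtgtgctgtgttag
H1-5: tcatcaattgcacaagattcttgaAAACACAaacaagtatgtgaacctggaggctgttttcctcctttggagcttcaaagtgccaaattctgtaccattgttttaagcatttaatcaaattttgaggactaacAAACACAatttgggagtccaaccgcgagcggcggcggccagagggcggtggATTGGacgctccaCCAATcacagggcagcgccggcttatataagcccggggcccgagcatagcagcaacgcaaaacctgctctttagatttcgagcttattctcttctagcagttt
H2BC12: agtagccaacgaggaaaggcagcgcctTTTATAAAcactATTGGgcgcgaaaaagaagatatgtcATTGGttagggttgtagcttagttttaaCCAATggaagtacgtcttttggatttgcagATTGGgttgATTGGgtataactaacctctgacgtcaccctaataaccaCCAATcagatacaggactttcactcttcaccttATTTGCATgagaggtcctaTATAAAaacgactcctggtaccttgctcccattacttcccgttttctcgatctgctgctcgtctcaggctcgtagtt
H4C12: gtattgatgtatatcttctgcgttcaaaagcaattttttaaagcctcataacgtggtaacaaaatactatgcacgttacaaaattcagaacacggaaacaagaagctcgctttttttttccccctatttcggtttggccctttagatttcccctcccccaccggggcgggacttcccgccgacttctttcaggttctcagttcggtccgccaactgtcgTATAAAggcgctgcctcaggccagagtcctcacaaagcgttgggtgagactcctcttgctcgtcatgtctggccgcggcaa
A window was found for 46 of the 57 genes. The octamer, which is bound by POU family factors, was present in 8 of 9 H2A and 11 of 13 H2B windows and in 1.80% of the 27305 windows of all genes. The H1 box was present in 6 of 6 H1 windows and in no other histone window, against 5.76% of all windows. CCAAT was found in 39 of the 46 histone windows (84.8%, against 35.7% of all windows) and in 3 of the 10 H4 windows. TATAAA was found in 31 (67.4%, against 3264 of all windows, or 12%). The octamer holds no other motif of the set, and because neighbouring H2A and H2B genes are often transcribed away from each other, some of the same bases fall in the windows of 2 genes. A match is a description of these letters only.

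The 34 baits fell into 3 groups separated by gaps of more than 200 kb. The first sub-cluster (chr6:26016454-26288615, 272 kb) held 21 baits with 36 genes, the middle sub-cluster (chr6:27131323-27147745, 16.4 kb) held 3 baits with 5 genes, and the last sub-cluster (chr6:27802597-27897145, 94.5 kb) held 10 baits with 16 genes. Gaps of 100 kb or 500 kb gave the same 3 groups.

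The first question was how many significant interactions the histone baits made in each state. They took part in 698 pairs in naive and 428 in primed PSCs, a ratio of 1.63 (95% interval from counting error, 1.45 to 1.84), while the pairs of all baits together numbered 79330 in naive and 88985 in primed PSCs (ratio 0.891). Of the histone pairs, 296 were listed in both states, which is 42.4% of the naive and 69.2% of the primed pairs; when both ends could differ by 10 kb, these shares were 87.2% and 93.7%. Each state had 1 combined list, so these counts have no replicate test, and because pairs that share a bait are not independent their intervals are narrower than the true error. None of the pairs joined different chromosomes, and only 6 naive and 5 primed pairs left the histone interval.

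Individual baits followed the same direction, although a pair of 2 histone baits counts for both and the baits are not separate observations. In naive PSCs 31 of 34 histone baits had more pairs than in primed PSCs, against 45.1% of all baits, and 3 had more in primed, against 42.7% of all baits. The median was 26 pairs per bait in naive and 14.5 in primed PSCs, with ranges of 8 to 74 and 1 to 55. Among baits with at least 10 pairs in either state, 10 of 33 histone baits (30.3%) had at least 2 times as many pairs in naive PSCs. Its exact binomial interval of 15.6% to 48.7% includes the share of such baits of the genome, 751 of 4171 (18%). In primed PSCs 0 of 33 had at least 2 times as many, against 29.4%. The clustered protocadherin genes, another tandem gene family, had the opposite pattern, with 0 of 30 baits in naive and 17 of 30 in primed PSCs; the difference between the families was not tested because there is 1 list per state.

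**Figure D1:**
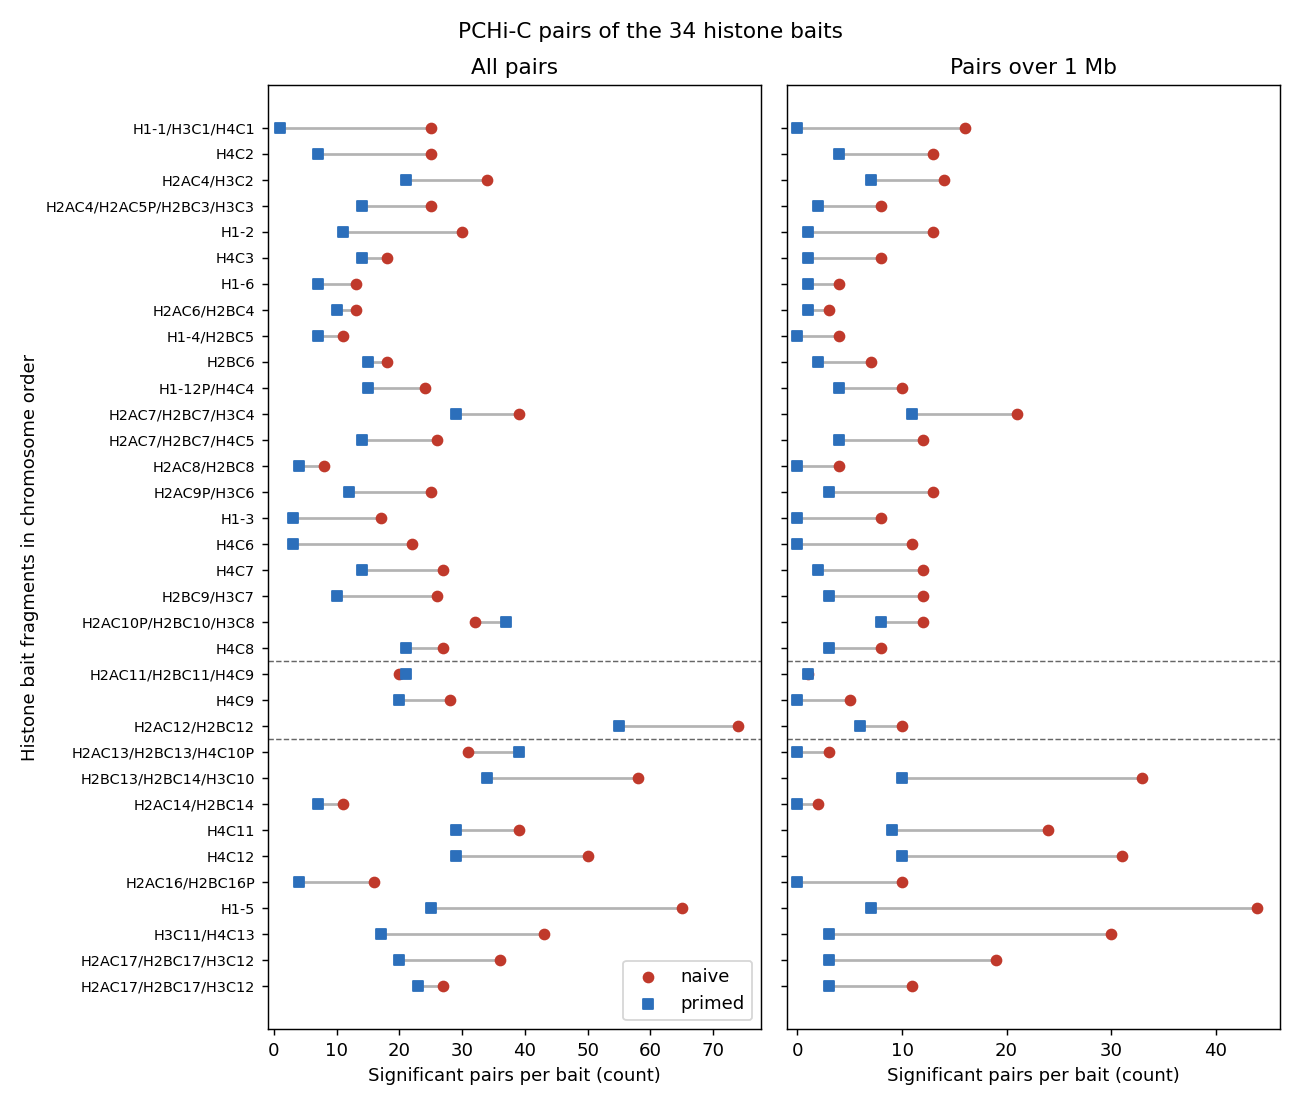
PCHi-C pairs of each histone bait in naive (circles) and primed (squares) PSCs, for all pairs (left) and for pairs over 1 Mb (right). Baits are in chromosome order, the dashed lines separate the 3 sub-clusters, and each point is the count from 1 combined list per state; 31 of 34 baits have more pairs in naive, and for pairs over 1 Mb 33 of 34 do.

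Linker histone genes had some of the largest differences. All 7 baits with an H1 gene or pseudogene had more pairs in naive PSCs, with a median of 24 pairs in naive and 7 in primed. The bait of *H1-5* (chr6:27866573-27869842), in the last sub-cluster, had 65 pairs in naive and 25 in primed PSCs, the largest difference of the 34. *H1-1/H3C1/H4C1*, the first bait of the cluster (chr6:26016454-26022374), had 25 pairs in naive and 1 in primed. *H1-3* had 17 and 3, and *H1-2* had 30 and 11. Smaller differences were seen for *H1-4/H2BC5* (11 and 7), for *H1-6*, a testis-specific linker histone (13 and 7), and for *H1-12P/H4C4*, which holds an H1 pseudogene (24 and 15). Of the naive pairs of *H1-1/H3C1/H4C1* and *H1-3*, 0 and 1 were also in the primed list.

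Core histone baits moved in the same direction in most cases. More pairs in naive PSCs were found for 12 of 15 baits with an H2A gene and 14 of 17 with an H2B gene. They were also found for 10 of 11 with an H3 gene and 12 of 14 with an H4 gene. A bait with several genes counts in each class, and pseudogenes such as *H2AC10P* and *H4C10P* count with their class. Among the busiest baits of the first sub-cluster, *H2AC7/H2BC7/H3C4* had 39 pairs in naive and 29 in primed PSCs, and *H2AC4/H3C2* had 34 and 21. In the last sub-cluster *H2BC13/H2BC14/H3C10* had 58 and 34, *H4C12* had 50 and 29, and *H3C11/H4C13* had 43 and 17. The 3 baits with more pairs in primed PSCs were *H2AC13/H2BC13/H4C10P* (31 in naive and 39 in primed), *H2AC10P/H2BC10/H3C8* (32 and 37) and *H2AC11/H2BC11/H4C9* (20 and 21).

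The difference between states was concentrated at long range. Over 1 Mb the histone baits had 302 pairs in naive and 66 in primed PSCs, a ratio of 4.58 (3.51 to 5.97), and up to 1 Mb they had 396 and 362, a ratio of 1.09 (0.949 to 1.26). The other baits of the genome had the reverse at long range, with 1032 pairs over 1 Mb in naive and 5919 in primed PSCs, a ratio of 0.174 (0.163 to 0.186). The other baits of chromosome 6 had 94 and 515. Pairs over 1 Mb made up 43.3% of the histone pairs in naive and 15.4% in primed PSCs, against 1.69% and 6.75% of the pairs of all baits within chromosomes. The histone baits therefore held 279 of the 419 naive pairs between 1500 and 2000 kb (66.6%, exact binomial interval 61.8% to 71.1%) and 59 of the 1273 primed pairs (4.63%, 3.55% to 5.94%).

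**Figure D2:**
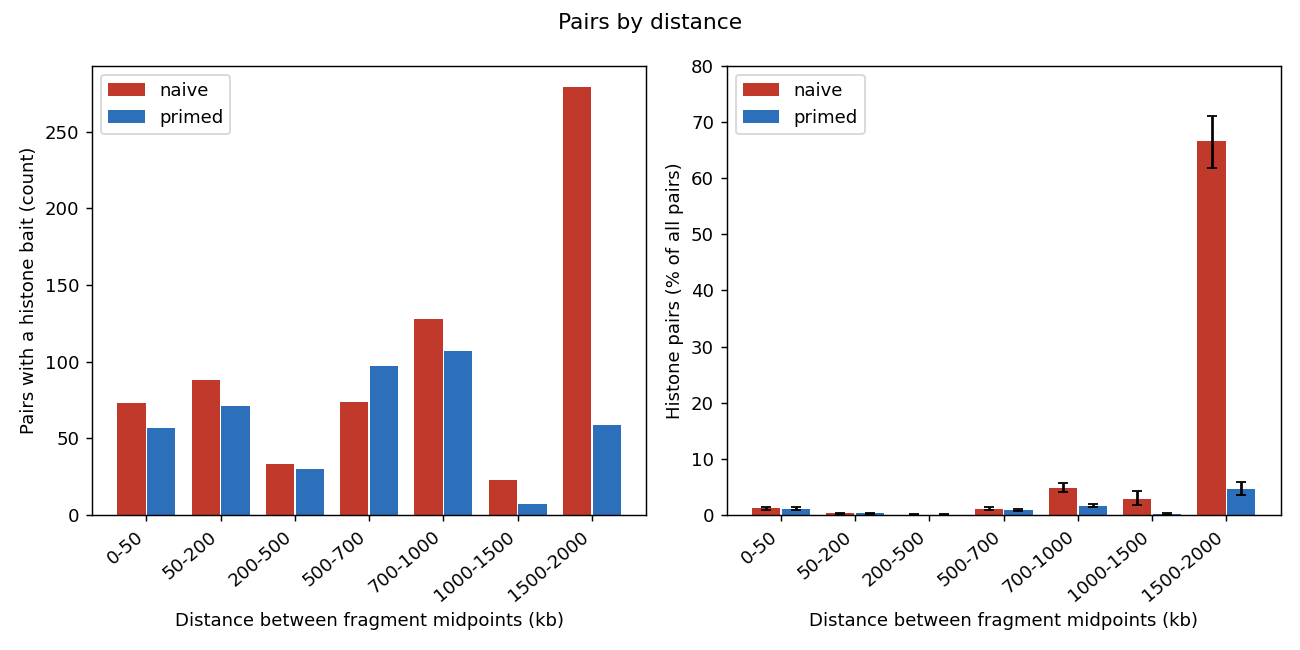
Pairs with a histone bait by distance (left, count) and as a percentage of all pairs within chromosomes at the same distance (right), in naive and primed PSCs. Error bars are exact 95% binomial intervals, which cover counting error only; the histone baits hold 66.6% of the naive and 4.63% of the primed pairs between 1500 and 2000 kb.

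At the level of single baits, 33 of 34 histone baits had more pairs over 1 Mb in naive PSCs and 0 had more in primed PSCs; of the 1734 baits of the genome with such a pair, 13.6% had more in naive and 81.7% had more in primed. *H1-5* had 44 such pairs in naive and 7 in primed PSCs, *H2BC13/H2BC14/H3C10* had 33 and 10, *H4C12* had 31 and 10, and *H3C11/H4C13* had 30 and 3. The remaining bait, *H2AC11/H2BC11/H4C9* of the middle sub-cluster, had 1 in each state. Of the histone pairs over 1 Mb, 134 of 302 in naive and 43 of 66 in primed PSCs joined 2 histone baits. Such a pair counts for both of its baits, so the baits are not separate observations. The sub-clusters differ in how far apart they lie. The first and last sub-clusters are 1519 to 1876 kb apart between bait midpoints, the first and middle 848 to 1127 kb, which spans the 1 Mb limit, and the middle and last 659 to 760 kb.

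Pairs of histone baits were next sorted by the sub-clusters they join. Between the first and last sub-clusters, 120 of 210 possible bait pairs were significant in naive PSCs (57.1%, exact binomial interval 50.2% to 63.9%) and 37 in primed PSCs (17.6%, 12.7% to 23.5%), and 36 of the 37 were also among the 120. Between the middle and last sub-clusters, 26 of 30 possible pairs were significant in each state, and they were the same 26. Between the first and middle sub-clusters the numbers were 44 and 32 of 63. Within sub-clusters, 71 and 51 of 210 possible pairs were found in the first, 23 and 16 of 45 in the last, and 1 and 2 of 3 in the middle sub-cluster. Taking all pairs, 190 of 303 possible pairs between sub-clusters were listed in naive and 95 in primed PSCs (ratio 2.00, 1.56 to 2.56), and 95 and 69 of 258 within them (1.38, 1.01 to 1.88). The interval within sub-clusters included 1 with a score of at least 7 (1.18, 0.809 to 1.73), with a score of at least 10 (1.23, 0.734 to 2.06) and with at least 10 reads (1.34, 0.972 to 1.86).

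**Figure D3:**
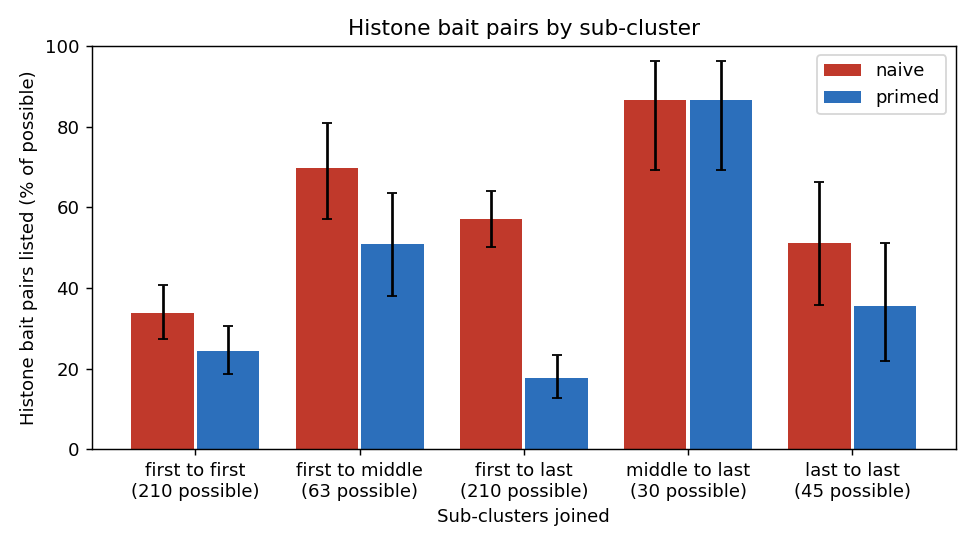
Histone bait pairs listed as significant, as a percentage of all possible bait pairs, by the sub-clusters they join, in naive and primed PSCs. Error bars are exact 95% binomial intervals; first to last pairs are at 57.1% in naive and 17.6% in primed, and middle to last pairs are at 86.7% in both (the 3 possible pairs within the middle sub-cluster are left out).

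The middle sub-cluster held the bait with the most interactions in both states. *H2AC12/H2BC12* (chr6:27145668-27147745), which carries an H2A and an H2B gene, had 74 pairs in naive and 55 in primed PSCs, 48 of them in both, and was joined to 32 of the 33 other histone baits in naive and to 29 in primed. Its neighbour *H4C9* (chr6:27138639-27139673) had 28 and 20 pairs. *H2AC12/H2BC12* was thus paired with nearly all histone baits in either state. The fragment also overlaps the promoter of a named gene that is not a histone gene, as does that of *H2BC6*. Its pairs can therefore not be assigned to the histone genes alone. With the 32 baits that hold histone names only, 152 pairs between sub-clusters were listed in naive and 64 in primed PSCs (ratio 2.38, 1.77 to 3.18).

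Pairs with fragments that had no bait were counted in the same way. Baits of the last sub-cluster had 76 pairs with unbaited fragments of the first sub-cluster in naive and 5 in primed PSCs, and baits of the first had 75 and 14 with unbaited fragments of the last. Pairs of the last sub-cluster with unbaited fragments between the sub-clusters numbered 56 in naive and 91 in primed PSCs (ratio 0.615, 0.441 to 0.858), of which 50 and 86 lay within 100 kb of the middle sub-cluster. With the same fragments, baits of the first sub-cluster had 19 and 20 pairs and those of the middle had 8 and 8. The histone baits had pairs with 108 fragments without a bait in all, of which 9 carried a histone promoter and 17 a tRNA gene, tRNA genes being another abundant gene family of this region.

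Some of the contacted fragments without a bait carried histone promoters or a part of one. The fragment with the start of *H3C11* (chr6:27869843-27872603), which lies between the baits of *H1-5* and *H3C11/H4C13*, was paired with 24 histone baits in naive and 3 in primed PSCs. The *H3C11* promoter runs on from it into the *H3C11/H4C13* bait. The fragment of *H2AC15/H2BC15* (chr6:27834331-27850973) was paired with 16 and 10. A fragment of the middle sub-cluster with no promoter (chr6:27139674-27144096) was paired with 20 and 17, and its neighbour (chr6:27144097-27145667) with 15 and 8. Close to the middle sub-cluster, the fragments at chr6:27129513-27131322 and chr6:27157210-27160067, the latter with 1 tRNA gene, had 9 and 8, and 4 and 9. A further fragment of the first sub-cluster (chr6:26267239-26270813) had 5 and 8.

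Scores and reads were then compared for pairs listed in both states, which leaves out the pairs that fell below the list's threshold in one of them. The CHiCAGO score is a weighted −log p-value of a pair against the background expected at its distance, and only scores of 5 or more are listed. Of the 296 common histone pairs, 180 (60.8%) had the higher score in naive PSCs, against 49.0% of the 39360 common pairs of all baits, and the median difference was 1.24, against −0.05. For the 48 common pairs with 1 end in the first and 1 in the last sub-cluster, 40 were higher in naive and the median difference was 5.63; combined read numbers were higher in naive in 41, against 29.4% of all common pairs, with a median log2 ratio of 0.68. All other common pairs over 1 Mb had a median score difference of −2.62 and a median log2 read ratio of −0.53. Of the 44 common pairs between the first and middle sub-clusters, 37 had the higher score in naive and 35 more reads. Their median score difference was 2.8 and their median log2 read ratio 0.42. Between the middle and last sub-clusters 28 and 31 of 50 were higher, with medians of 2.1 and 0.23. Within sub-clusters 55 and 47 of 94 were higher, with medians of 0.82 and 0.00. Over all common pairs the median log2 read ratio was −0.21.

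The histone pair with the highest score in naive PSCs joined *H2AC4/H3C2* with *H1-5* over 1835 kb, at a score of 54.5 with 24 reads, and had 17.8 with 10 reads in primed PSCs. The pair of *H2AC7/H2BC7/H4C5* with *H1-5* over 1666 kb scored 37.7 in naive with 18 reads and was not listed in primed. *H4C9* with *H2BC13/H2BC14/H3C10* over 672 kb scored 51.3 in naive and 29.6 in primed. Among the 5 highest of both states, *H2AC12/H2BC12* with *H2BC13/H2BC14/H3C10* scored 41.6 in naive and 50.5 in primed, and *H2AC12/H2BC12* with *H4C11* scored 35.7 and 41.4. The other 3 of the primed list were *H2AC12/H2BC12* with *H2AC7/H2BC7/H3C4* (44.5 in primed, 28.5 in naive), with *H2AC17/H2BC17/H3C12* (43.9 and 34.1), and *H2AC4/H2AC5P/H2BC3/H3C3* with *H4C3* inside the first sub-cluster (38.8 and 18.2). *H2AC12/H2BC12* was at an end of 4 of the 5 leading primed pairs, and *H1-5* of 2 of the 5 leading naive pairs.

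Hi-C counts were examined in the same places, because they do not depend on the capture step. The captured material was prepared from Hi-C library DNA, so the assays share that step and are not independent samples. The files list 31310843 contacts in naive and 52056334 in primed PSCs, and the naive file leaves out pairs of bins with few contacts within chromosomes. Counts were therefore scaled by the contacts of neighbouring 100 kb bins, which were 0.854 times as many in naive. Between the 3 bins of the first and the 1 bin of the last sub-cluster, naive PSCs had 45, 30 and 66 contacts and primed PSCs had 22, 18 and 34, and each naive count lay above its primed count. The sums of 141 and 74 gave a scaled ratio of 2.23 (1.68 to 2.96, Poisson counting error).

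The other bin pairs differed less. Between the first and middle sub-clusters the 3 bin pairs had 22, 18 and 63 contacts in naive and 24, 14 and 55 in primed PSCs (scaled ratio 1.30, 0.979 to 1.72). Between the middle and last sub-clusters there were 132 contacts in naive and 135 in primed (1.14, 0.900 to 1.45). Both of these intervals include 1. When neighbouring bins were added, the ratios were 1.35 (1.15 to 1.60) for first to middle and 0.844 (0.754 to 0.945) for middle to last. Only bin pairs listed in both states were summed, 11 of 15 for first to middle and 8 of 9 for middle to last. The pairs left out were missing from the naive library, which omits low counts, so these ratios lean towards naive. The direction of middle to last depended on the bins, and there was 1 library per state. Primed PSCs also had more contacts than expected from pairs of bins at the same distance and coverage. The excess was 3.03 times (2.38 to 3.81) for first to last, 1.87 times (1.51 to 2.29) for first to middle and 4.55 times (3.81 to 5.38) for middle to last. For first to middle it was uneven. Relative to coverage, 25.3%, 28.2% and 6.31% of bin pairs at the same distance reached the primed counts of 24, 14 and 55. For first to last, 10.1%, 5.67% and 3.98% reached the primed counts of 22, 18 and 34. For middle to last, 0.683% reached 135. Contacts with other chromosomes, a proxy for copy number, numbered 1626 in naive and 1623 in primed PSCs for the bins of the sub-clusters, as shares of all such contacts a ratio of 1.09 (1.02 to 1.17), against 1.01 for the whole chromosome.

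**Figure D4:**
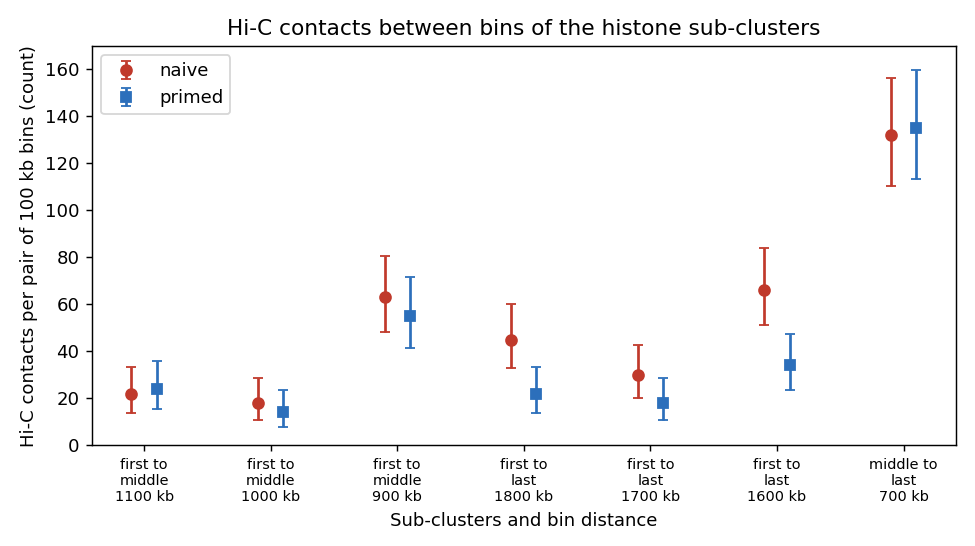
Hi-C contacts between 100 kb bins that hold histone baits, in the naive and the primed library, by the sub-clusters joined and the distance between bins. Points are counts of 1 library each and are not scaled, and bars are exact 95% Poisson intervals; for first to last, naive counts are 45, 30 and 66 and primed counts 22, 18 and 34.

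H3K4me1 was compared on the same fragments with 2 naive and 3 primed libraries. The value of a fragment is the mean log2 RPM of its 500 bp tiles, and limma with Benjamini-Hochberg adjustment over all 88413 fragments of the lists was used at a threshold of 0.05. H3K4me1 was higher in naive PSCs on 11 of 34 histone baits (32.4%), against 14.2% of all fragments, and higher in primed PSCs on 0 of 34, against 8.99%; without adjustment these were 17 and 0. Of the bait fragments alone, 16.4% were higher in naive and 7.04% in primed. The median difference of the 34 was 0.72, against 0.17 over all bait fragments and 0.06 over all fragments. Both naive libraries lay above all primed libraries on 20 baits, against 26.5% of all fragments, and below them on 1, against 16.2%. Empty tiles take a lowest value set by library depth, from −4.89 to −2.91 log2 RPM. Between 15.3% and 52.3% of tiles were at it, so these means also move with depth. The number called ranged from 1 to 15 when 1 library was left out. It was 1 without the second naive library, 3 without the first and 4 without the third primed library. Over all 88413 fragments, 6480, 7640 and 9622 were then higher in naive, against 12513 with all libraries. In those fits the share of histone baits was near or below that of all fragments. Without the first or the second primed library it was 15 and 9 of 34, against 12529 and 14234 of all fragments.

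The called fragments were mostly in the first sub-cluster, with 9 of its 21 baits, and none of the 3 middle baits was called. On *H4C7* the naive libraries had 0.19 and 0.61 log2 RPM and the primed libraries −0.87, −1.41 and −1.45, a difference of 1.64 ± 0.37 (SE; limma adjusted p = 0.00124). On *H4C3* they had −0.68 and −0.29, and −1.88, −2.28 and −2.18, a difference of 1.63 ± 0.36 (limma adjusted p = 0.00108). On *H1-4/H2BC5* they had −0.75 and −0.51, and −1.96, −2.05 and −2.03, a difference of 1.38 ± 0.36 (limma adjusted p = 0.00443). In all 3 the states did not overlap. The other 8 had differences of 1.02 to 1.25: *H4C6* (1.25), *H2AC13/H2BC13/H4C10P* (1.21), *H2AC9P/H3C6* (1.18), *H2AC4/H2AC5P/H2BC3/H3C3* (1.11), *H2BC6* (1.08), *H2AC6/H2BC4* (1.06), *H2AC14/H2BC14* (1.04) and *H1-12P/H4C4* (1.02). Of the 11, 5 passed the threshold after median centring of the libraries and 5 without the mean-variance trend. In each of these fits 5 of the 34 histone baits were called, against 10442 and 9333 of all 88413 fragments.

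**Figure D5:**
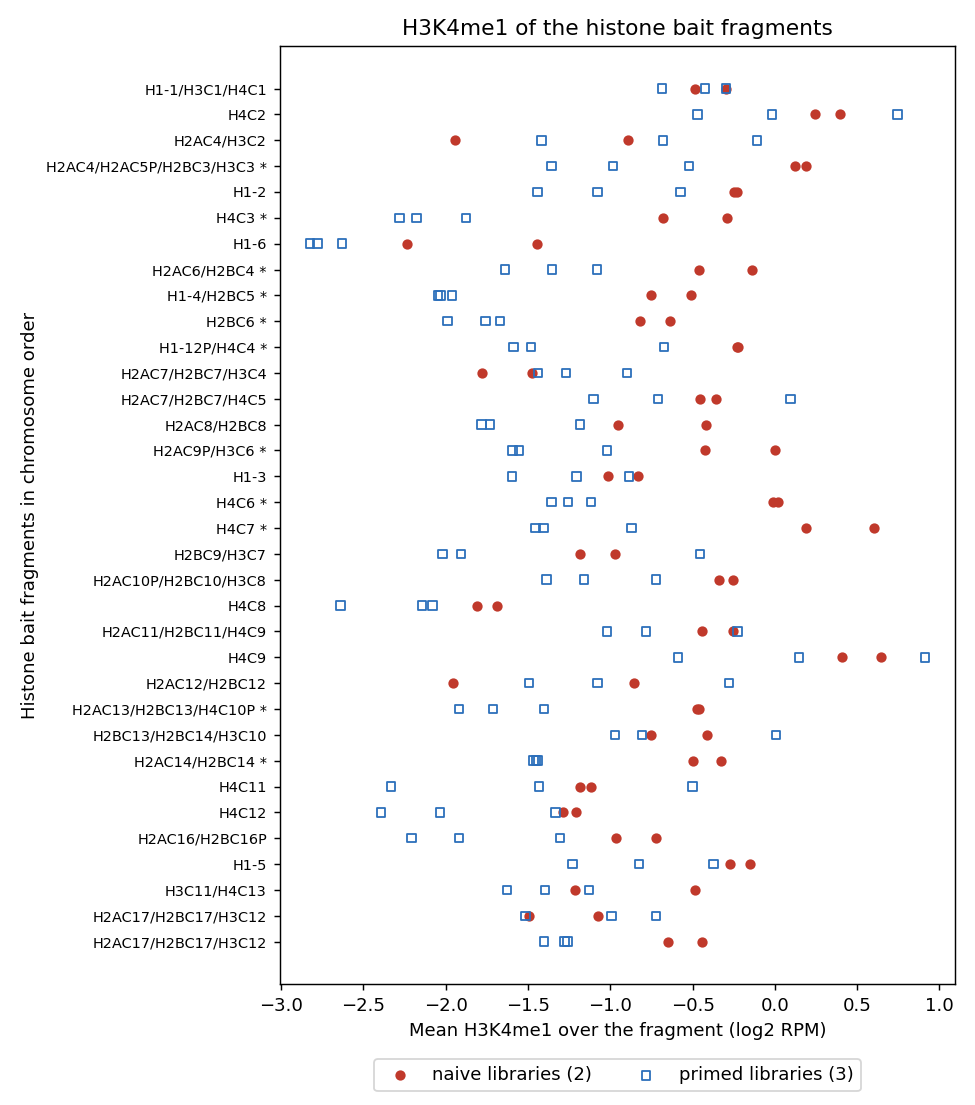
Mean H3K4me1 over each histone bait fragment in the 2 naive (filled circles) and 3 primed (open squares) libraries, in log2 RPM, with baits in chromosome order. An asterisk marks the 11 fragments past the limma threshold, all with the naive libraries above the primed ones; the fragments of *H1-1/H3C1/H4C1* and *H2AC12/H2BC12* overlap between states.

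Several baits with large differences in interactions did not pass the H3K4me1 test, although *H4C6*, with 22 and 3 pairs, did. *H1-1/H3C1/H4C1*, with 25 and 1 pairs, had −0.49 and −0.30 log2 RPM in the naive and −0.42, −0.30 and −0.69 in the primed libraries, and the states overlapped (difference 0.08 ± 0.36; limma adjusted p = 0.944). *H1-5* had −0.15 and −0.27, and −0.37, −0.83 and −1.23 (difference 0.60 ± 0.37; limma adjusted p = 0.294). *H2BC13/H2BC14/H3C10* had a difference of 0.01 and *H3C11/H4C13* of 0.53, and neither passed the test. Of the 3 baits with more pairs in primed PSCs, *H2AC13/H2BC13/H4C10P* was among the called fragments with higher H3K4me1 in naive. Fragments without a histone bait that were paired with one were also counted, against the same 14.2% and 8.99% of all fragments: 30 of the 92 contacted in naive PSCs were higher in naive and 2 higher in primed, and 38 and 0 of the 93 contacted in primed PSCs, although many fragments are in both sets.

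Single tiles showed where in a fragment the states differed. Of 491 tiles on the histone baits, 174 were above 0 log2 RPM in at least 2 libraries and were tested. A tile that passed this filter only through the state in which it is high had to differ, so the counts are a description. Of the tested tiles 44 were higher in naive and 3 in primed PSCs, against 26.1% and 25.9% of all tested tiles. On the *H1-4/H2BC5* fragment the tile at chr6:26145001-26145500, upstream of both genes, had 1.20 and 1.77 log2 RPM in naive and −2.15, −2.98 and −2.73 in primed libraries. The tile at the start of *H1-3* (chr6:26234501-26235000) had higher values in primed, with −1.45 and −1.75 in naive and 1.71, 0.34 and 1.27 in primed libraries, and so did the tile next to it, over the other end of the gene and on the fragment of *H2AC9P/H3C6* (chr6:26234001-26234500), with −2.12 and −1.17 in naive and 1.61, 0.34 and 0.97 in primed libraries. On *H1-5* 1 tile upstream of the gene (chr6:27869501-27870000), which reaches into the next fragment, had 0.68 and 0.25 in naive and −1.56, −2.98 and −1.93 in primed libraries. Each of these 4 tiles was above 0 log2 RPM in 1 state only, so no test is given for them.

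Histone genes elsewhere in the genome were counted for comparison, since they include replication-dependent genes of the smaller cluster on chromosome 1 and variant histone genes that are expressed outside S phase. Of 15 baits, 14 had more pairs in naive and 1 in primed PSCs, against 45.1% and 42.7% of all baits, with medians of 3 and 1. *H2AC20/H2BC21* on chromosome 1 had 33 pairs in naive and 19 in primed, *H2AC18/H2BC19P* 25 and 19, *H2AZ2* 13 and 4, *H2AX* 11 and 4, and *H1-8*, the oocyte linker histone, 9 and 0. None of the 15 had more than 1 pair over 1 Mb. H3K4me1 was higher in naive PSCs on 4 of the 15 fragments, against 16.4% of all bait fragments, among them *H2AZ2* (1.48), *H2AC20/H2BC21* (1.44) and 1 of the 2 of *H3-3B* (1.11), and on 0 it was higher in primed.

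Genes whose products act on histone genes were less uniform. Of 14 baits, 8 had more pairs in naive, 5 in primed and 1 the same number, with medians of 2 and 4. Of all baits, 45.1% had more in naive and 42.7% in primed. *ATM/NPAT*, whose bait holds the promoter of the histone locus body protein NPAT, had 2 pairs in naive and 5 in primed PSCs, *HINFP*, a factor for H4 promoters, had 1 and 4, and *CDK2*, the kinase that acts with cyclin E on NPAT, had 14 and 7. H3K4me1 was higher in naive PSCs on 4 of the 14 fragments, against the same 16.4%, those of *CASP8AP2* (2.18), *CCNA2* (1.76), *CSTF2* (1.73) and 1 of the 2 of *YY1* (1.58). No expression data were analysed here, so neither the level of these genes nor that of the histone genes was measured.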

How the data were processed

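The members, the sub-clusters and the gene lists were chosen with earlier results of these data known. The authors mapped PCHi-C and Hi-C reads with HiCUP to GRCh38 and called PCHi-C pairs with CHiCAGO on 2 combined replicates per state; the submitters' processing notes name Bowtie2 2.2.7 and 2.3.2 and Trim Galore 0.4.5 for these assays, and Bowtie2 2.3.2 and Trim Galore 0.5.0 for H3K4me1. The deposited lists give a CHiCAGO score of at least 5 and a read count per pair. The Hi-C files give deposited contact counts. The H3K4me1 tables give log2 RPM per 500 bp tile, computed by the authors. *Hin*dIII sites were checked at both ends of 5684 of 5684 listed fragments of chromosome 6 in GRCh38. Samples of the series without a table here were not analysed.

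Histone genes were assigned to baits from GENCODE version 44, since the deposited bait marks hold strand signs. Pairs listed from both ends were counted once, and distances run between fragment midpoints. Shares have exact (Clopper-Pearson) 95% intervals and ratios have counting intervals, all for counting error only. H3K4me1 used limma 3.58.1 (R 4.3.3) with a mean-variance trend and Benjamini-Hochberg adjustment at 0.05, on fragment means and on tiles above 0 log2 RPM in at least 2 libraries; scripts were tested on simulated data. Counts used pandas 2.3.3, NumPy 2.4.6 and SciPy 1.17.1. Named with values were H1 baits, the 3 busiest baits of each sub-cluster, the 3 largest and 3 smallest differences, baits past the H3K4me1 threshold, the 5 most contacted other fragments and 5 highest scoring pairs per state, and up to 5 genes of each list; other baits were named after their values were seen. Alternatives were other score, read, distance and fold limits, gap sizes, neighbouring Hi-C bins, H3K4me1 scalings, filters and pseudocounts of 0.1 and 1, a replicate block, and leaving out each library. Counting histone genes by their bodies was added after seeing the data.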

Additional observations from a re-analysis of the deposited data

How the results depend on the processing

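Of the PCHi-C results under the alternatives, 26 stayed close to the reported value, 14 moved and 0 reversed; each ratio of naive to primed pairs kept its direction. With a score of at least 7 the ratio was 5.32 for first to last and 6.97 over 1 Mb. With a score of at least 10 it was 2.23 for all pairs, 2.98 between sub-clusters, 12 for first to last and 17.9 over 1 Mb. With at least 10 reads per pair these were 1.33, 2.58, 20 and 25, the last from 75 naive and 3 primed pairs. With a limit of 0.5 Mb the long-range ratio was 1.87. When both ends could differ by 10 kb, 87.2% of naive and 93.7% of primed pairs were common, and at 1.5-fold 63.6% of histone baits passed in naive. Hi-C middle to last reversed to 0.844 when neighbouring bins were added (522 naive and 724 primed contacts in bins listed in both); the cause was not tested.

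The 11 histone fragments with higher H3K4me1 in naive became 6 with quantile normalisation, 5 with median centring, 5 without the trend, and 2 of the 4 tested with a mean above 0 log2 RPM; leaving out 1 library gave 1 to 15. The primed-higher count was 0 in each of these fits, and the median difference stayed positive, from 0.497 to 0.924. On the log2 of mean RPM plus 0.1 or plus 1, another scale, the medians were 0.516 and 0.228. In each of the 2, 8 of 34 were naive-higher, against 13455 and 13041 of all fragments, and 0 were primed-higher. Over all fragments, 12513 and 7944 calls became 7640 and 2543 without the first naive library and 6480 and 6902 without the second, 9333 and 5355 without the trend, and 2568 and 1766 of 8017 with the filter. With the replicate block 3 of 34 histone fragments were called (*H4C3*, *H1-4/H2BC5* and *H4C7*), and 10600 of all 88413 fragments were higher in naive. Equal numbers correlated at 0.0749 and 0.191 and the labels name no shared origin, so the numbers were not taken as a pairing. Of the 174 tested histone tiles, 44 were naive-higher, against 121251 of all 465156 tested tiles. With the block these were 34 and 99427. Without primed library 1, 2 or 3 they were 65, 46 and 29, against 134820, 126973 and 91751. Without naive library 1 or 2 the median difference of histone tiles was 0.849 and 0.794, against 0.0642 and 0.137. When 1 library sufficed, 85 of 284 histone tiles were naive-higher. The 3 primed-higher became 6 with quantile normalisation, 8 with median centring and 5 when 1 library sufficed. They became 2 to 5 when 1 primed library was left out. Depth limits the H3K4me1 means through tiles at the lowest value, and Hi-C through counts under 100 in most bin pairs.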

Other observations

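Other baits of the histone interval were not uniform. The bait at chr6:26031285-26032076, which holds most of the body of *H3C2* but no histone promoter, had 29 pairs in naive and 7 in primed PSCs, 13 and 2 of them over 1 Mb, and was paired with 19 and 7 histone baits. *HFE*, a regulator of iron uptake between histone genes of the first sub-cluster, had 7 and 2 pairs. *RNU7-26P*, a pseudogene of the U7 RNA that takes part in histone mRNA processing, lies directly after the last histone bait and had 3 pairs in naive and 14 in primed, while H3K4me1 was higher on its fragment in naive (log2 difference 1.11; limma adjusted p = 0.0261). Of 11 baits with other promoters or none, 5 had more pairs in naive, 4 in primed and 2 the same number. The 4 butyrophilin baits, which hold immune regulatory genes, had 2 with more in naive, 1 with more in primed and 1 equal. Of the 2 zinc finger baits 1 had more in naive and 1 was equal. Beside these counts, 45.1% of all baits had more pairs in naive and 42.7% in primed.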
